A study of Mus musculus with 31 samples.

Results

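Endothelial and mural cell transcripts were examined in the RNA of temporo-occipital cortex and of CD11b+ microglia from mice with or without the PLCγ2-P522R variant. They comprised 35 genes chosen by name, 25 of endothelial cells and 10 of mural cells, of the 55401 genes counted, and all 35 were found and passed the filter on low counts in each of 7 comparisons. The mice were 13 months of age on a C57Bl/6J background. Cortex libraries came from female A-/Pwt/wt (n = 1), A+/Pwt/wt (n = 4) and A+/Pki/ki mice (n = 4). CD11b+ libraries came from female A-/Pwt/wt (n = 7), A+/Pwt/wt (n = 4) and A+/Pki/ki mice (n = 4) and from male A-/Pwt/wt (WT, n = 3) and A-/Pki/ki mice (KI, n = 4). A+ mice carried the APP/PS1 transgene, a chimeric APP with the Swedish mutations and human PS1 lacking exon 9 behind the mouse prion protein promoter. Pki/ki mice were homozygous for the knock-in made with CRISPR/Cas9. CD11b+ cells were taken from whole brain with antibody-coated magnetic beads after enzymatic digestion, whereas cortex was homogenized whole.

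Endothelial cells line brain capillaries. They are joined by tight and adherens junctions, carry transporters that move nutrients inward and drugs outward, and are kept in their mature state by vascular endothelial growth factor, angiopoietin, Notch and Wnt signals and by transcription factors of the ETS and SOX families. Pericytes sit on the capillary wall and depend on platelet-derived growth factor from the endothelium, and smooth muscle cells wrap arterioles and set their width. Together they form the blood-brain barrier and the bed on which β-amyloid can deposit in vessels. Neither cell type is known to carry CD11b, the integrin used for the isolation.

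Total counts ranged from 16229831 to 25118180 in the 22 CD11b+ libraries and from 25226544 to 43129427 in the 9 cortex libraries. Levels are given as CPM, a count relative to the library total after TMM scaling within each tissue. A list score is the mean log2 CPM of its genes in a library and was not tested. In these bulk libraries, fewer cells of a type and less RNA per cell cannot be told apart. The batch tags in the sample labels were the same within each comparison of Pki/ki with Pwt/wt in CD11b+ microglia, and cortex labels held none.

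Promoter windows from RefSeq (GRCm38.p6) were matched for 26 of the 35 genes. The bases before the start of 4 of them, ended where the annotated transcript begins, are shown, picked after their values were seen: Cldn5 and Emcn as endothelial genes and Vtn as a mural gene that were higher in KI males, and Myl9 as the gene that holds a CArG box, the element bound by serum response factor in smooth muscle genes. Capitals mark the CArG box or the letters AGGAAG, the core bound by ETS factors, read on either strand.
Cldn5, chr16:18776597-18776846, plus strand: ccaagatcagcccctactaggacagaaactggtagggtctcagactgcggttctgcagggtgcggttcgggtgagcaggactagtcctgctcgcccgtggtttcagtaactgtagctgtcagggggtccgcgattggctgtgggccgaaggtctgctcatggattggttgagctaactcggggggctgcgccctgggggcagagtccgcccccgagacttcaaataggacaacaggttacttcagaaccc
Emcn, chr3:137340828-137341066, plus strand: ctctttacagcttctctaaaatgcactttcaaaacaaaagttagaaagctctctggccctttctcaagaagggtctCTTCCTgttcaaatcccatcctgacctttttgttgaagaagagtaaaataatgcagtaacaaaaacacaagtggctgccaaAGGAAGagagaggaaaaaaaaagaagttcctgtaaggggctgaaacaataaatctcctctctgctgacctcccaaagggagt
Vtn, chr11:78498870-78499090, plus strand: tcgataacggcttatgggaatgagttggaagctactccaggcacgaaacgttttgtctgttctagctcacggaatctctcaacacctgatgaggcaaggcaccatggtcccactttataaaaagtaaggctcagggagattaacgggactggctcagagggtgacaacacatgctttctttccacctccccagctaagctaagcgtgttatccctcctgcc
Myl9, chr2:156775214-156775419, plus strand: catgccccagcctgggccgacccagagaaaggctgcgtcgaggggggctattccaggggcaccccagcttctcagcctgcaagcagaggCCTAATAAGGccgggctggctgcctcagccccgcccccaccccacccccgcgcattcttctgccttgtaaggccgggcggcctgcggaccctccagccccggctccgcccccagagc
Emcn held AGGAAG once on each strand, and Cldn5 and Vtn held none of the motifs searched. In the 250 bases before the start, AGGAAG was found in 12 of 26 genes, which is 46.2%, as against 32.3% of 27025 genes with a window. ACAATG, the core bound by SOX factors, was found in Abcg2, Erg and Slco1a4, or 11.5%, as against 12.2% of all. The CArG box was found in Myl9 only, as against 1.62% of all. These matches describe letters in the windows and not binding.

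The vascular transcripts were present in every library, and their order differed between the tissues. Per kilobase of exon, Spock2, a secreted proteoglycan core protein that neurons also make, was highest in A+/Pwt/wt cortex, with a mean of 158 CPM per kb. Vtn, the secreted adhesion protein vitronectin made by pericytes, followed with 39.5 CPM per kb. Cldn5, the main claudin of the endothelial tight junction, had 31.8 CPM per kb. In A+/Pwt/wt CD11b+ microglia the order was led by Cldn5 with 185, while Spock2 had 121 and Vtn 69.8 CPM per kb. Tagln, a smooth muscle actin-binding protein, was lowest in both, with 0.163 CPM per kb in cortex and 0.371 in CD11b+ microglia. Within the other roles, the highest in A+/Pwt/wt cortex were Slco1c1, a thyroid hormone transporter, with 7.91, Myl9, a myosin light chain, with 8.01, Flt1, a receptor for vascular endothelial growth factor, with 4.25, and Sox17, a transcription factor of arterial endothelium, with 1.11 CPM per kb.

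The first question was how far the CD11b isolation left vascular RNA behind. In A+/Pwt/wt mice, 34 of 35 vascular genes were higher in CD11b+ microglia than in cortex, with Spock2 the exception, while 37.7% of all genes tested were higher. The median log2 fold change (log2FC) over the 35 genes was 2.89, a 7.41-fold difference, as against -0.06 over all genes. Cldn5 had 424, 173, 260 and 191 CPM in CD11b+ libraries and 44.8, 54.9, 38.7 and 41.4 CPM in cortex. Flt1 had 598, 381, 538 and 377 CPM as against 48.8, 71.9, 45.1 and 63.8 CPM. For both genes every CD11b+ library was above every cortex library in these CPM, which were scaled within each tissue. The share of all genes without such overlap was not computed, so this separation is not set apart from that of other genes. Sox17 had 73.5, 52.7, 52.7 and 37.0 CPM in CD11b+ libraries and 4.91, 6.01, 3.63 and 6.57 CPM in cortex, and Slco1c1 had 274, 131, 202 and 154 CPM as against 36.4, 52.8, 32.3 and 42.7 CPM. Sox17 and Slco1c1 also did not overlap in these CPM, with the same limit.

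The difference was larger for endothelial genes, with a median log2FC of 2.97, than for pericyte genes, with a median of 1.46. Among the 25 genes listed as endothelial, the highest value was that of Ecscr, which encodes a surface protein. Its log2FC was 4.01 ± 0.189 (SE), as against a median of 4.73 for microglia markers. The cell source of Ecscr in these libraries was not tested. Vwf, the von Willebrand clotting factor, had 3.52 ± 0.147 and an adjusted p of 6.43e-09 in edgeR. The ETS factor Erg had 2.89 ± 0.228. Among mural genes Acta2, the smooth muscle actin, had 4.36 ± 0.302, with 208, 105, 110 and 103 CPM in CD11b+ libraries and 5.08, 7.26, 10.2 and 9.36 CPM in cortex. The pericyte gene Vtn had 1.13 ± 0.253, with 227, 101, 145 and 94.1 CPM as against 78.0, 95.3, 72.9 and 74.9 CPM. In these CPM, 1 CD11b+ library lay within the range of cortex. CPM were scaled within each tissue and the log2FC over both, so this overlap may not hold on the scale of the log2FC. Myl9 had 2.90 ± 0.254, with 93.4, 44.8, 43.0 and 42.8 CPM as against 9.12, 9.10, 9.44 and 9.56 CPM. Spock2 had 965, 473, 709 and 527 CPM as against 822, 907, 857 and 905 CPM, and its log2FC was -0.07 ± 0.205, so the groups overlapped.

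The same comparison in A+/Pki/ki mice gave 30 of 35 vascular genes higher in CD11b+ microglia, as against 36.8% of all genes, with a median log2FC of 2.19. The 5 that did not pass were Vtn, Abcc9 and Kcnj8, the last 2 the subunits of the pericyte ATP-sensitive potassium channel, Mfsd2a, the lipid transporter that limits transcytosis, and Spock2. The 2 genotypes share no libraries, and the difference between them was not tested. Without A+/Pki/ki CD11b+ mouse 335, 30 genes were higher and 1 was lower, while 38.9% of all genes were higher and 8093 of 18799 were lower.

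Other lists differed in direction. Of 30 further endothelial genes, 29 were higher in A+/Pwt/wt CD11b+ microglia and 1 lower, with a median log2FC of 2.69. The lower one, named after its values were seen, was Plvap, a protein of fenestrated vessels that the mature barrier lacks, with -1.41. All 16 further mural genes were higher, with a median of 1.88. Of 12 neuron markers, 12 were lower, with a median of -3.87, and 9 of 10 astrocyte markers were lower, with a median of -1.0. Of 9 fibroblast markers tested, 4 were lower and 1 higher, with a median of -0.56. Of all 18541 genes tested, 7447 were lower, a share near that of the fibroblast markers. Microglia markers had a median of 4.73 and markers of border macrophages, which live along vessels and meninges and carry CD11b, a median of 4.44, each with every gene higher. Blood cell markers had a median of 2.13, with 9 of 10 tested higher. Of 10 oligodendrocyte markers, 2 were higher and 5 lower, with a median of -0.52. The summed level of the 35 genes was 3403 to 6389 CPM in the 4 A+/Pwt/wt CD11b+ libraries and 1459 to 1726 CPM in cortex. Of these sums, Spock2 alone gave 473 to 965 CPM in CD11b+ libraries and 822 to 907 CPM in cortex. For the oligodendrocyte markers the summed level was 22494 to 52162 CPM and 4014 to 6735 CPM. Isolation, brain region, RNA kit and mice differ together in this comparison and cannot be told apart. With library totals in place of TMM, the median was 2.52.

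**Figure D1:**
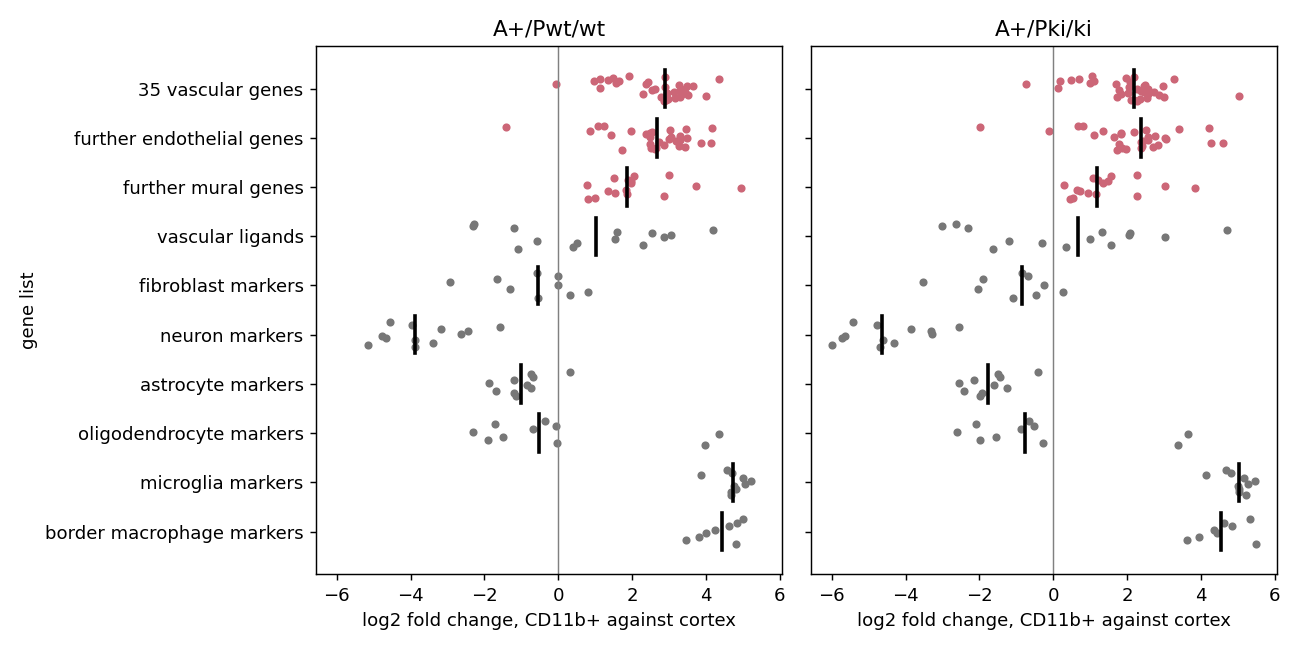
Each point is the log2FC of 1 gene in CD11b+ microglia against cortex (x axis) for 10 gene lists (y axis), in A+/Pwt/wt (left) and A+/Pki/ki mice (right), with 4 libraries a group, and black bars are list medians. The 35 vascular genes lie to the right of 0 except Spock2, with medians of 2.89 and 2.19, while neuron markers lie to the left.

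The second question was whether the P522R variant altered vascular transcripts in CD11b+ microglia of males. The endothelial score was 6.67, 6.25 and 6.53 in WT and 6.42, 7.33, 7.33 and 7.16 in KI males. The mural score was 5.06, 4.91 and 5.27 in WT and 4.91, 5.96, 5.98 and 5.79 in KI males. The low KI value of both scores belonged to mouse 104, which lay within the WT range of the endothelial score, while mice 136, 139 and 84 lay above all WT mice.

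**Figure D2:**
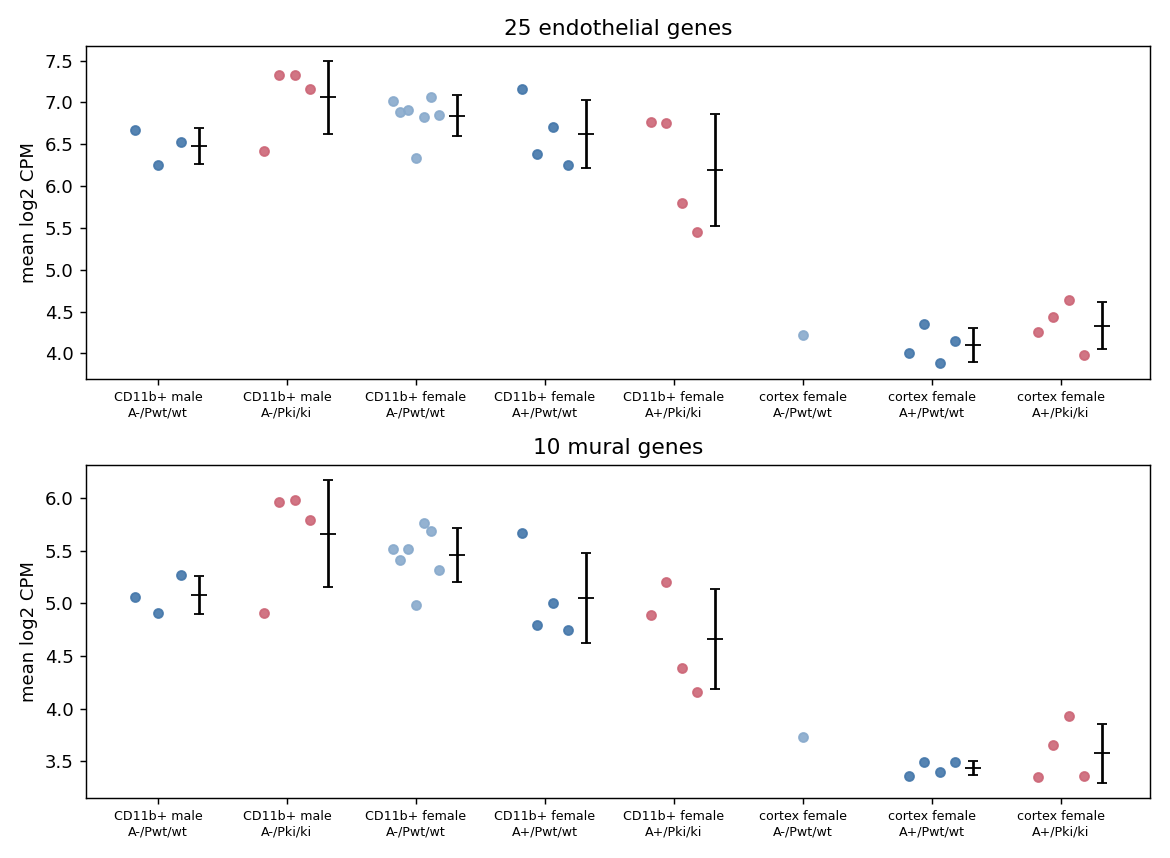
Each point is the mean log2 CPM (y axis) of the 25 endothelial genes (top) or the 10 mural genes (bottom) in 1 library, by group (x axis). Bars are the mean and SD, not drawn for the single A-/Pwt/wt cortex library. CD11b+ libraries lie between 5.45 and 7.33 for endothelial genes and cortex libraries between 3.88 and 4.64.

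Of the 35 vascular genes, 8 rose in KI males at FDR 0.05 and none fell, while 11.1% of all genes tested rose and 861 of 16373 fell. The 8 were Egfl7, Emcn, Ly6a, Ly6c1, Itm2a, Cldn5, Kcnj8 and Vtn. The log2FC was above 0 for 34 of the 35, with a median of 0.74 (1.67-fold), as against -0.001 over all genes. The groups did not overlap for 5 genes, Egfl7, Emcn, Kcnj8, Ly6a and Ly6c1, while 14.4% of all genes were higher in every KI than in every WT library. The 5 of 35 were thus near the share of all genes.

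Among the endothelial genes, Egfl7, a secreted factor that organises vessel tubes and hosts miR-126, had 81.1, 63.9 and 67.2 CPM in WT and 88.5, 132, 138 and 122 CPM in KI males. The KI library nearest to WT was again mouse 104. Its log2FC was 0.81 ± 0.170 (SE, adjusted p = 0.014, edgeR). Egfl7 exons overlap Agpat2 on the other strand and Gm20532 on the same strand, so its count is uncertain to that extent.
Emcn, the surface mucin of capillaries and veins, had 16.0, 13.8 and 15.0 CPM in WT and 18.2, 30.7, 28.2 and 30.9 CPM in KI males, with a log2FC of 0.90 ± 0.190 (adjusted p = 0.0143, edgeR). Cldn5 had 344, 209 and 266 CPM in WT and 326, 475, 534 and 450 CPM in KI males. Mouse 104 lay between WT mice, and the other 3 KI libraries lay above all WT libraries. The log2FC of Cldn5 was 0.76 ± 0.213 (adjusted p = 0.04, edgeR).
Ly6c1 and Ly6a, small surface proteins anchored by lipid, are abundant on brain endothelium. Both belong to a family of similar neighbouring genes, so their counts are uncertain to that extent. Ly6c1 had 156, 113 and 145 CPM in WT and 162, 248, 284 and 233 CPM in KI males (log2FC 0.80 ± 0.199). Ly6a had 95.3, 71.7 and 83.6 CPM as against 107, 145, 176 and 129 CPM (log2FC 0.78 ± 0.182). Itm2a, a membrane protein rich in brain endothelium, had 110, 72.9 and 102 CPM as against 106, 196, 212 and 175 CPM (log2FC 0.91 ± 0.243). Only Itm2a of these 3 overlapped between the groups, through mouse 104.
Of the pericyte genes, Kcnj8 had 4.34, 2.80 and 4.98 CPM in WT and 5.86, 10.1, 9.12 and 7.87 CPM in KI males, with a log2FC of 1.07 ± 0.267. Vtn had 115, 72.6 and 101 CPM in WT and 103, 291, 287 and 184 CPM in KI males, with a log2FC of 1.22 ± 0.346, the largest of the 35. Its WT range held mouse 104.

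By role, the median log2FC was 0.65 for 10 junction, adhesion and surface genes, 0.69 for 4 growth factor receptors, 0.88 for 5 barrier transporters and 0.67 for 2 transcription factors. It was 0.82 for 4 other genes enriched in endothelium, of which 3 passed the test, Ly6a, Ly6c1 and Itm2a. It was 0.95 for 6 pericyte genes and 0.23 for 4 smooth muscle genes. No growth factor receptor, transporter, transcription factor or smooth muscle gene passed the test in edgeR. At an unadjusted p under 0.05 there were 3 receptors, 5 transporters, 2 transcription factors and 1 smooth muscle gene, while 33.3% of all genes had such a p. Flt1, the most abundant receptor per kb in A+/Pwt/wt cortex, had 481, 351 and 434 CPM in WT and 296, 833, 688 and 664 CPM in KI males. Slco1c1 had 153, 119 and 159 CPM as against 119, 298, 342 and 285 CPM. Sox17 had 57.7, 53.5 and 66.6 CPM as against 60.9, 91.7, 122 and 83.1 CPM. In all 3 genes mouse 104 lay within or below the WT range and the other KI libraries above it. Myl9 had 85.7, 71.6 and 85.6 CPM as against 82.9, 99.2, 119 and 124 CPM, and Spock2 578, 354 and 474 CPM as against 452, 1200, 831 and 749 CPM. Ecscr alone had a log2FC below 0, of -0.42 ± 0.163 (adjusted p = 0.104, edgeR).

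The count of 8 depended on single libraries. Without WT mouse 102 it was 0 of 35 in edgeR, while 4.84% of all genes rose, with 13 at an unadjusted p under 0.05, as against 22.7% of all genes. Without KI mouse 104 it was 32 higher and 1 lower, while 20.2% of all genes rose and 2153 of 16242 fell. Without WT mouse 101 it was 5, while 6.93% of all genes rose, and without WT mouse 94 it was 2, while 6.28% rose. Without KI mouse 136 or 139 it was 3 each, while 7.24% and 6.61% of all genes rose, and without KI mouse 84 it was 7, while 12.2% rose. The 2 of 35 without WT mouse 94 and the 3 of 35 without KI mouse 136 or 139 were near the share of all genes. DESeq2 called 24 higher (14.8% of all genes) and edgeR without the filter on low counts 27 (8.47% of all genes), while limma on the variance-stabilized values called 6, while 1645 of 16373 genes rose.

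Markers of other cell types moved with the vascular genes in males. All 12 neuron markers rose, with a median log2FC of 2.11, and their summed level was 202 to 296 CPM in WT and 654 to 1416 CPM in KI males. All 10 astrocyte markers rose, with a median of 1.14 and summed levels of 701 to 867 CPM in WT and 1141 to 2272 CPM in KI. Of 10 oligodendrocyte markers, 7 rose, with a median of 1.09. Microglia markers had a median of -0.40, with 1 of 10 lower, while 861 of 16373 genes fell. Their summed levels were 23017 to 24011 CPM in WT and 13127 to 22897 CPM in KI. No marker of these lists was at 0 in all libraries of a group. In mouse 104 the neuron score was 4.98, above the 2.98 to 3.54 of WT, while its vascular scores were at the WT level. The part of these cell types in the result was not tested.
Vascular lists with other genes gave smaller medians. Of 14 vascular ligands, 2 rose, Wnt7a and Wnt7b, which signal from neural cells to endothelium, with a median of 0.49. Of 30 further endothelial genes, 3 rose, Icam2, Sox18 and Sox7, with a median of 0.58, and of 16 further mural genes 1 rose, Ndufa4l2, with a median of 0.47. The called shares of the further endothelial and mural genes, 3 of 30 and 1 of 16, were not above the 11.1% of all genes that rose. The share of the ligands, 2 of 14, was near it. These 6 genes were named after their values were seen. None of these lists had a gene that fell, and no fibroblast marker was called, with 0 of 9 at an unadjusted p under 0.05.

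The third question was whether the variant altered vascular transcripts in CD11b+ microglia of APP/PS1 females. No vascular gene passed the test in edgeR, nor did any other gene (0.0%). In edgeR 2 of 35 had an unadjusted p under 0.05, near the 3.37% of all genes, and DESeq2 called 1, Ecscr, as against 0.0413% of all genes. limma called none. The log2FC was above 0 for 2 of 35, Ecscr and Tagln, as against 50.7% of all genes, with a median of -0.46, opposite in sign to males. The endothelial score was 7.16, 6.38, 6.71 and 6.25 in A+/Pwt/wt and 6.76, 6.75, 5.80 and 5.45 in A+/Pki/ki mice. Mice 394 and 405 lay below all A+/Pwt/wt mice, mice 244 and 335 within their range. In single genes, Cldn5 had 245, 353, 142 and 94.8 CPM in A+/Pki/ki mice, Flt1 506, 429, 261 and 245 CPM, and Slco1c1 191, 188, 80.8 and 57.9 CPM, each with its 2 lowest values in mice 394 and 405. Of the mural genes, Vtn had 122, 182, 66.6 and 46.1 CPM and Myl9 37.4, 60.9, 38.2 and 33.6 CPM, beside the A+/Pwt/wt values given above for the tissues. The median was -0.18 without A+/Pwt/wt mouse 331 and -0.66 without A+/Pki/ki mouse 335. Neuron marker scores were 4.95 to 5.80 in A+/Pwt/wt mice, 3.18 and 2.78 in mice 394 and 405, and 4.30 and 6.17 in mice 244 and 335. The part of these cells in the result was not tested.
The gene with the lowest p was Ecscr, with 24.8, 30.5, 35.1 and 27.4 CPM in A+/Pwt/wt and 49.9, 46.5, 55.7 and 66.2 CPM in A+/Pki/ki mice. It was the sole vascular gene whose groups did not overlap, while 2.81% of all genes did not overlap in either direction. Its log2FC was 0.83 ± 0.140, opposite in sign to the other endothelial genes, with an adjusted p of 0.853 in edgeR and 0.00176 in DESeq2. Notch3, the receptor that maintains mural cells, had 85.5, 56.3, 58.5 and 59.7 CPM as against 57.1, 52.4, 45.5 and 40.9 CPM, with a log2FC of -0.47 ± 0.178 and an adjusted p of 0.853. Its groups overlapped through mouse 244.

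**Figure D3:**
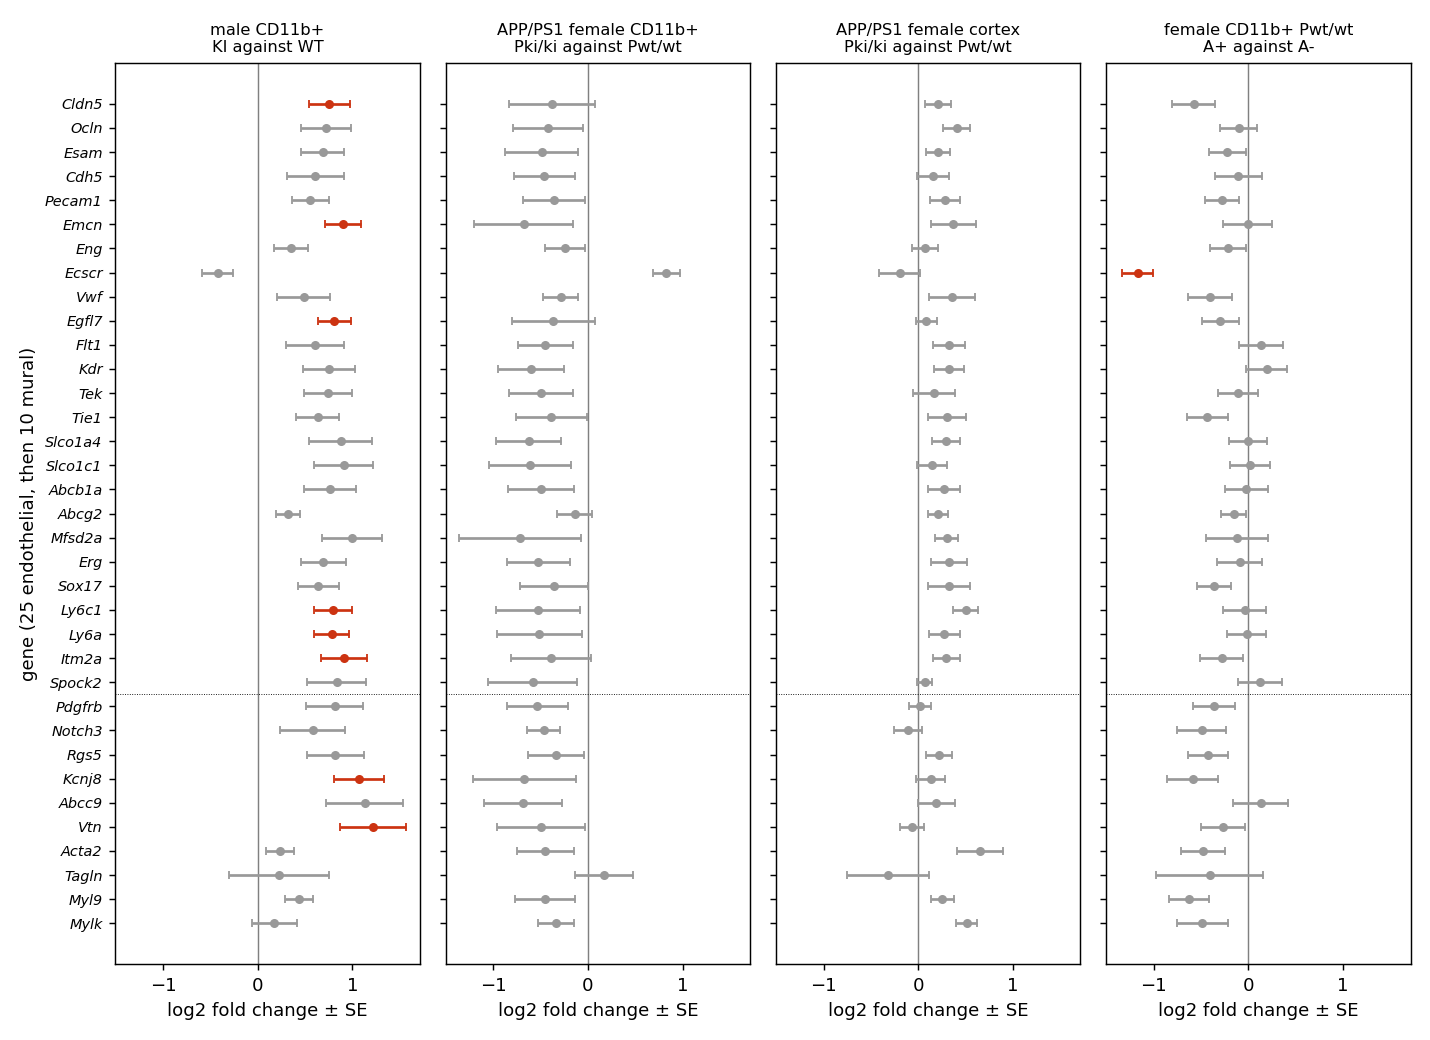
Points are the log2FC of each of the 35 genes (y axis) in 4 comparisons, bars are the SE, and red marks FDR 0.05 in edgeR. In KI males 8 genes are red and 34 lie right of 0, in APP/PS1 females 33 lie left of 0 with none red, in cortex 31 lie right of 0 with none red, and in A+ against A- microglia only Ecscr is red.

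The difference between the male and the APP/PS1 female effect of the variant was tested directly. No vascular gene and no other gene (0.0%) passed in edgeR, while 27 of 35 vascular genes had an unadjusted p under 0.05, as against 26.5% of all genes tested. The median of the difference, males minus females, was 1.19 on the log2 scale, as against 0.014 over all genes. Of the 35 values, 34 were above 0, as against 51.0% over all genes. Neuron markers had a median difference of 2.93 and astrocyte markers 1.87, each with every gene above 0. Oligodendrocyte markers had 1.47, with 10 of 10 above 0, and microglia markers -0.59, with 0 of 10. The part of these cells in the result was not tested. Slco1a4, an organic anion transporter of the barrier, had a difference of 1.52 ± 0.529 (adjusted p = 0.143, edgeR), with 166, 115 and 147 CPM in WT and 109, 312, 333 and 261 CPM in KI males. In females it had 329, 212, 244 and 180 CPM in A+/Pwt/wt and 226, 218, 117 and 89.2 CPM in A+/Pki/ki mice. Ecscr had a difference of -1.22 ± 0.234 (adjusted p = 0.143, edgeR) and was the 1 vascular gene called by DESeq2, in which 7.15% of all genes were called. Without A+/Pki/ki mouse 335, 20 vascular genes were higher and 1 lower, while 35.4% of all genes were called. Sex, transgene and batch tag differ together between the effects compared and cannot be told apart.

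In cortex of APP/PS1 females, no vascular gene passed the test in edgeR, nor did any other gene (0.0%), and 5 of 35 had an unadjusted p under 0.05, as against 2.76% of all genes. The log2FC was above 0 for 31 of 35, with a median of 0.26, as against 49.3% above 0 over all genes. It was above 0 for 24 of 25 endothelial genes, with a median of 0.28, and for 4 of 6 pericyte genes, with a median of 0.08. The endothelial score was 4.01, 4.35, 3.88 and 4.15 in A+/Pwt/wt and 4.25, 4.44, 4.64 and 3.98 in A+/Pki/ki mice, so the groups overlapped. DESeq2 called 1 vascular gene, Mylk, as against 0.059% of all genes, edgeR without the filter on low counts called Mylk and Ly6c1, as against 0.116% of all genes, and limma called none.
Mylk, the kinase of myosin light chain that drives smooth muscle contraction, had 16.2, 18.6, 20.95 and 21.9 CPM in A+/Pwt/wt and 25.1, 27.0, 32.2 and 26.2 CPM in A+/Pki/ki cortex. It was the sole vascular gene without overlap, while 1.85% of all genes did not overlap in either direction. Its log2FC was 0.51 ± 0.109 with an adjusted p of 1.0 in edgeR and 0.0249 in DESeq2. Mylk overlaps E130310I04Rik and Gm21691 on the other strand, and its counts were made irrespective of strand. Ly6c1 had 18.6, 27.4, 20.8 and 23.4 CPM as against 30.2, 36.7, 35.02 and 25.5 CPM, with a log2FC of 0.50 ± 0.132 and an adjusted p of 1.0 in edgeR. A+/Pki/ki mouse 222 lay within the A+/Pwt/wt range. Neuron and microglia markers had medians of 0.0 and -0.01 in this comparison. Blood cell markers had a median of 0.44, with 8 of 10 above 0, and astrocyte markers 0.07, with 9 of 10 above 0, and none of these was called. The part of these cells in the result was not tested.
The single A-/Pwt/wt cortex library has no replicate. In this library 4 of 35 vascular genes lay outside the range of the 8 A+ libraries, while 27.8% of all genes did. Acta2 with 31.8 CPM and Myl9 with 17.3 CPM lay above, and Kdr, the main receptor for vascular endothelial growth factor, with 10.9 CPM, and Kcnj8 with 3.34 CPM lay below. These 4 were named after their values were seen.

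The last comparison was between A+/Pwt/wt and A-/Pwt/wt female CD11b+ microglia, whose batch tags differ with the transgene and cannot be told apart from it. A+/Pwt/wt mice are also the controls of the variant in APP/PS1 females. One vascular gene passed the test in edgeR, Ecscr, which was lower, while 0.282% of all genes were lower. It was also the sole vascular gene without overlap, while 1.38% of all genes were lower in every A+ library. Ecscr was 46.8 to 82.3 CPM in A-/Pwt/wt mice with a median of 62.9 CPM, and 24.8, 30.5, 35.1 and 27.4 CPM in A+/Pwt/wt mice. Its log2FC was -1.17 ± 0.167 with an adjusted p of 0.00365, and it stayed below FDR 0.05 in all 17 alternatives, with adjusted p from 6.11e-10 to 0.0228. Over the 35 genes the median log2FC was -0.22, as against -0.03 over all genes, and 30 of 35 were below 0. It was -0.11 for endothelial and -0.45 for mural genes. Without A+/Pwt/wt mouse 331 the median was -0.51, and 3 genes were lower, Ecscr, Cldn5 and Myl9, while 0.442% of all genes were lower. Cldn5 was 318 to 481 CPM in A-/Pwt/wt mice with a median of 378 CPM. Of 8 border macrophage markers 2 were lower, with a median of -0.95 and summed levels of 795 to 1843 CPM in A-/Pwt/wt and 644 to 776 CPM in A+/Pwt/wt mice. Their part in the result was not tested.

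Ecscr had the opposite sign to the endothelial median in the comparisons of Pki/ki with Pwt/wt, in CD11b+ microglia of either sex and in cortex, where its log2FC was -0.19 ± 0.218 (adjusted p = 1.0, edgeR), and the same sign in both comparisons with cortex and in A+ against A- microglia. It had 91.8, 95.7 and 97.7 CPM in WT males, 92.0, 65.9, 50.5 and 68.0 CPM in KI males, and 1.49 to 2.61 CPM in the 9 cortex libraries. KI mouse 104, which had the lowest Cldn5 of the KI males, had their highest Ecscr. In APP/PS1 females, A+/Pki/ki mice 405 and 394, which had the lowest Cldn5, had the highest Ecscr of their group. This order did not hold in A+/Pwt/wt mice, where mouse 375 had the highest Ecscr, 35.1 CPM, and a Cldn5 of 260 CPM, second to mouse 331. Microglia marker scores were also highest in these KI mice, with 10.55 in mouse 104 and 9.76 to 10.14 in the other KI males, and 10.49 and 10.51 in mice 394 and 405 and 10.3 and 9.79 in mice 244 and 335. In A-/Pwt/wt females, mouse 242 had the highest microglia score and Ecscr, 10.33 and 82.3 CPM. Mouse 223 had the lowest of both, 9.49 and 46.8 CPM. In A+/Pwt/wt mice the highest score, 10.32, was that of mouse 367, whose Ecscr of 30.5 CPM was below that of mouse 375. The part of microglia in the Ecscr values was not tested.
Ecscr overlaps 1700066B19Rik on the other strand, and the counts were made irrespective of strand, so reads of the overlap cannot be told apart. 1700066B19Rik had at most 1.32 CPM in CD11b+ libraries. It passed the filter on low counts in 4 comparisons and had the sign of Ecscr in each. Its log2FC was -1.42 ± 0.467 in KI males (adjusted p = 0.0673, edgeR) and 1.62 ± 0.759 in APP/PS1 female microglia (adjusted p = 0.853, edgeR). The difference between them was -3.01 ± 0.918 (adjusted p = 0.143, edgeR), and its sign follows from these 2 values. In A+/Pki/ki microglia against cortex the log2FC was 2.84 ± 0.738 (adjusted p = 0.00729, edgeR). That comparison used the same A+/Pki/ki microglia libraries as the female one, so the 4 signs are not separate results. 1700066B19Rik was picked after its values were seen.

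**Figure D4:**
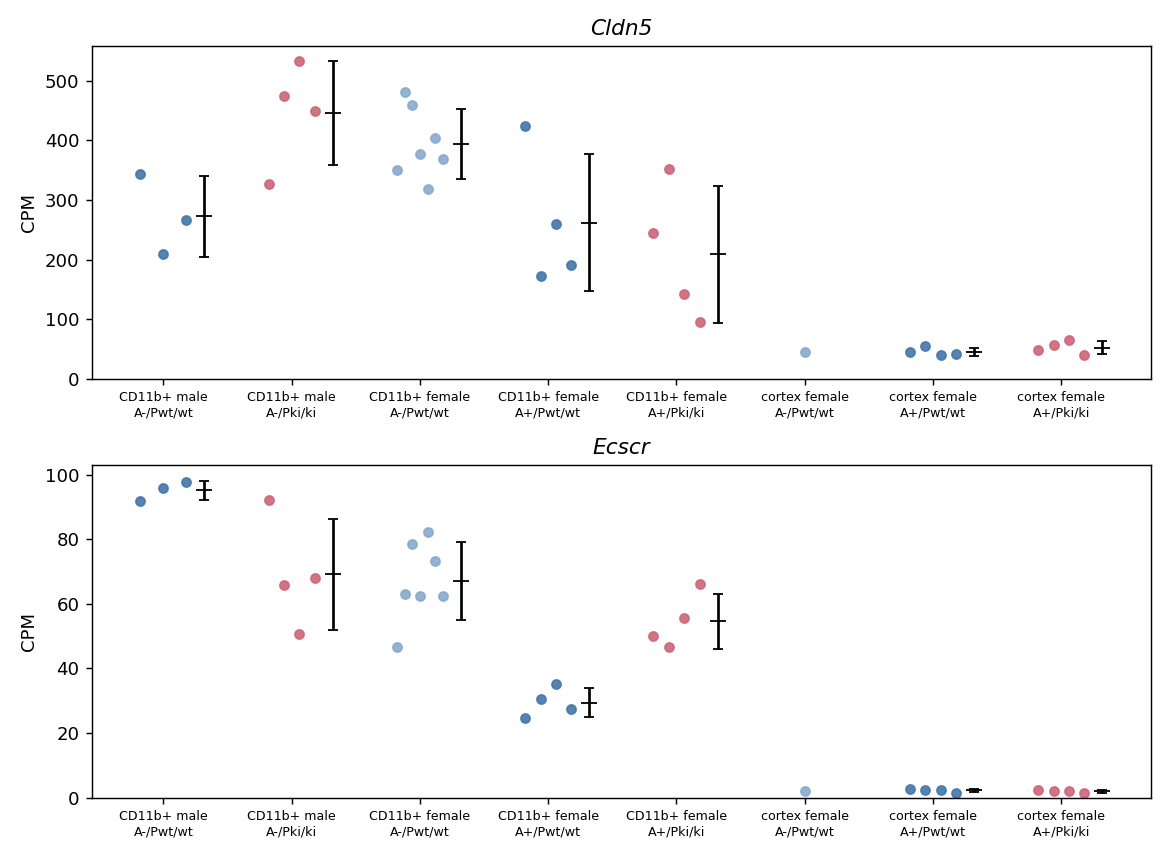
Each point is the CPM (y axis, from 0) of Cldn5 (top) or Ecscr (bottom) in 1 library, by group (x axis), with bars for the mean and SD. Ecscr lies at 24.8 to 35.1 CPM in A+/Pwt/wt microglia, below the 46.8 to 82.3 CPM of A-/Pwt/wt females, and both genes are lowest in cortex.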

How the data were processed

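RNA sequencing counts of 31 libraries were used, and CPM columns were computed from them. The authors trimmed paired-end reads with Trimmomatic 0.39 after FastQC 0.11.7, aligned them with STAR 2.7.9a to GRCm38 with a Gencode annotation and counted uniquely mapped reads per gene with featureCounts 2.12.0 irrespective of strand. These counts were deposited unscaled. The log2-scale variance-stabilized values that the authors made with DESeq2 and deposited entered limma only. Every column was matched to a sample by its label. Mouse number 236 stands on an A-/Pwt/wt CD11b+ label and on an A+/Pwt/wt cortex label, which 1 mouse cannot be, and both were used as given. The labels name separate mice, and no library pair of a group was within sampling noise.
Genes that reached 10 counts in 3 or more fitted libraries entered edgeR 4.0.16 (R 4.3.3), whose quasi-likelihood test was used two-sided with TMM scaling and Benjamini-Hochberg adjustment over all genes tested, at FDR 0.05. Each comparison used its own libraries, and the fit was tested on simulated data. SE came from log2FC and the F statistic. Alternatives were DESeq2 1.42.0, limma 3.58.1, other scalings, filters and group sets, and leaving out each library. Scores used a prior count of 2. Exon lengths and overlaps came from another Gencode release of GRCm38 than the counting, and 9 of the 35 genes overlap a gene on the other strand. Values in every library are given for genes called within a tissue, up to 8 per comparison, for the 2 with the lowest p where none was called, and for the most abundant per kb of each role in A+/Pwt/wt cortex. The genes and lists were chosen with earlier results of these data known.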

Additional observations from a re-analysis of the deposited data

Results flagged for a closer look

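Of 114 sets of values of a named gene or score in groups of 4 to 7 libraries, 9 had a highest or lowest library far from the others by Dixon's criterion. Independent sets would give about 5.7 by chance. These sets come from the same libraries and are not independent, so 9 against 5.7 does not measure an excess. A+/Pwt/wt CD11b+ mouse 331 was the highest of 4 for Egfl7 (127 CPM, others 66.0 to 67.5), Notch3 (85.5 CPM, others 56.3 to 59.7), Myl9 (93.4 CPM, others 42.8 to 44.8) and Mylk (79.8 CPM, others 49.5 to 53.8). A+/Pki/ki CD11b+ mouse 335 was the highest of 4 for Myl9 (60.9 CPM, others 33.6 to 38.2). A-/Pwt/wt CD11b+ mouse 236 was the lowest of 7 for Slco1a4 (142 CPM, others 239 to 288) and for the endothelial score (6.33, others 6.83 to 7.07). In cortex, Itm2a was lowest in A+/Pwt/wt mouse 259 (28.7 CPM, others 34.8 to 35.2) and in A+/Pki/ki mouse 222 (28.3 CPM, others 43.8 to 47.0).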

How the results depend on the processing

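No paired analysis was possible because the replicate numbers are mouse numbers and no 2 groups compared share them. The median log2FC of the 35 genes kept its sign in each comparison under every alternative, with 2.52 against 2.89 for CD11b+ microglia against A+/Pwt/wt cortex when libraries were scaled by totals. In KI males the number called was 27 without the filter on low counts, 24 with DESeq2 and 0 to 33 when 1 library was left out, with the lowest without WT mouse 102 and the highest without KI mouse 104, and the median was 0.59 to 0.90. In APP/PS1 females DESeq2 called 1, and the median was -0.66 to -0.18, the latter without A+/Pwt/wt mouse 331 (-0.28 without A+/Pki/ki mouse 405). In cortex 2 were called without the filter and 1 with DESeq2, and the median fell from 0.26 to 0.12 without A+/Pki/ki mouse 216. Against A-/Pwt/wt females 1 to 3 were called, 3 without A+/Pwt/wt mouse 331, and the median was -0.51 without this mouse and -0.12 and -0.14 without A+/Pwt/wt mice 380 and 367. For the difference between males and females DESeq2 called 1, and 0 to 21 were called when 1 library was left out, 21 without A+/Pki/ki mouse 335 and 1 without KI mouse 104. The cause of these changes was not tested. With 3 or 4 libraries in most groups, a p that misses the threshold does not show that levels were alike. Tagln, at 0.08 to 2.00 CPM in CD11b+ microglia, rests on few counts.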
